A study of Mus musculus with 30 samples.

Results

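Cdkn1a, Mdm2, Zmat3 and Eda2r were higher in naive hearts of CHCHD10 S55L mice than in naive wild-type (WT) hearts. All are induced by the transcription factor p53 in mammalian cells. Cdkn1a, Mdm2 and Zmat3 were also higher at postpartum day 0. Eda2r passed the filter on low counts only through S55L libraries and held only 4 reads over the WT naive libraries. The size of its difference is therefore loosely set. Ccng1, another p53 target, was lower in S55L hearts under both conditions. That call was lost with total counts as the scaling, with no filter on low counts, with the plate column as a term and without some single libraries. The mRNA of p53 itself (Trp53) passed the main test in no comparison. These genes belong to a set of 10, made of Trp53 and its targets Cdkn1a, Mdm2, Ccng1, Eda2r, Bax, Phlda3, Trp53inp1, Bbc3 and Zmat3. Each was found in the deposited count tables by the mouse Ensembl identifier that carries the symbol, in each table by itself. All 10 were present among the 78258 gene rows of the postpartum study and among the 56691 gene rows of the diet study.

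The protein p53 is stabilised by DNA damage, disturbed ribosome production and other stresses, and then binds DNA as a tetramer and raises transcription of its targets. Mdm2 encodes the ubiquitin ligase that marks p53 for degradation, so that a rise of p53 activity also raises its own inhibitor. Other targets stop the cell cycle, start mitochondrial apoptosis or dampen growth signals. In the adult heart most cardiomyocytes have left the cell cycle, and p53 is known there mainly for its part in stress responses and cell loss.

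RNA of whole mouse hearts was counted in 6 groups, as 3′ mRNA libraries of the QuantSeq type, in which reads come from the 3′ ends of transcripts. In the postpartum study, naive mice were 100 days old, and postpartum (PP) mice had been mated at 65 days and were killed at day 0 after birth; both states were sampled in WT mice and in mice with the p.S55L change in CHCHD10, a protein of the mitochondrial intermembrane space. In the diet study, all mice were S55L and PP, and while breeding they ate either control food or food with EH301, a supplement of nicotinamide riboside and pterostilbene. The labels give 5 columns per group and do not say how many S55L alleles the mice carried, nor whether every library came from its own mouse. The p-values therefore rest on the spread among libraries, which may in part be technical.

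Columns 1 and 2 of WT PP held identical counts, as did columns 1 and 2 of S55L PP, and each such pair was used once. Column 5 of the control diet and column 6 of the EH301 diet also held the same counts and were not used. This left 5 WT naive, 4 WT PP, 5 S55L naive, 4 S55L PP, 4 control diet and 4 EH301 diet libraries. In the postpartum study, reads on genes ran from 1418715 to 2949993 in WT libraries and from 2755500 to 5131316 in S55L libraries, so that depth moved with genotype. The diet libraries held 466651 to 3048461 reads on genes. Per the well codes in the column names, all WT libraries except WT PP 1 came from plate column 1 and all S55L libraries from plate columns 2 and 3, so a genotype difference and a plate column difference can be told apart only through that 1 WT library. Levels are counts per 1000000 reads on genes (CPM) after scaling by trimmed means, given as mean ± SD over libraries, and 1 count was worth 0.179 to 0.817 CPM in the postpartum study. Reads fall at 3′ ends, so CPM were compared between libraries for the same gene and not between genes. Chchd10 was 4501 CPM in S55L naive and 2719 CPM in WT naive hearts (log2 difference 0.73, SE 0.19, adjusted p = 0.0028 by the edgeR quasi-likelihood test), and 4170 against 3410 CPM at PP (adjusted p = 0.31). These 3′ counts do not read the changed codon and so do not check the genotype labels.

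The DNA upstream of the Cdkn1a, Ccng1 and Mdm2 starts is printed because their counts differed between genotypes in both states and their windows hold matches to the p53 consensus. Windows are the 250 bases before a RefSeq gene start, in RefSeq's build GRCm38.p6, read 5′ to 3′ on the gene's strand, and 8 of the 10 genes had a window in the RefSeq table. Capitals mark 1 match per window, and a further 10-base element of the Cdkn1a window is left in lower case. In Cdkn1a (chr17:29090729-29090978, plus strand) and Ccng1 (chr11:40755287-40755536, minus strand) it spans 20 bases, 2 adjacent 10-base p53 consensus elements with 1 mismatch allowed in all. In Mdm2 (chr10:117710759-117711008, minus strand) it is a single 10-base element.
Cdkn1a: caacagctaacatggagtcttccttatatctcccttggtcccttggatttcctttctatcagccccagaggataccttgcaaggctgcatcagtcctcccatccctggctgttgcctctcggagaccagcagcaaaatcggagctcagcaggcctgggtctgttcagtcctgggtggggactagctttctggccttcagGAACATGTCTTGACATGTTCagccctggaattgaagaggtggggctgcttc
Ccng1: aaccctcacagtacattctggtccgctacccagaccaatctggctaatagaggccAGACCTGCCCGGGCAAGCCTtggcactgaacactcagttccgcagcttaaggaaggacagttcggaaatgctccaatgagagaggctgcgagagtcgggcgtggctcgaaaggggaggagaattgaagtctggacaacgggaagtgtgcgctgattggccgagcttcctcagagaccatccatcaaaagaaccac
Mdm2: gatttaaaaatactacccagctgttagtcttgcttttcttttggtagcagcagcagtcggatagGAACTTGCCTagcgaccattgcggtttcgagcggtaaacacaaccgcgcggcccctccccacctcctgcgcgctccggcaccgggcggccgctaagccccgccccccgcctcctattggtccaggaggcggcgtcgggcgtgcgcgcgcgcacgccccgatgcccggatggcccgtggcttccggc
The Cdkn1a match begins 51 bases before the upstream one of its annotated starts, the Ccng1 match 195 bases and the Mdm2 element 186 bases before their starts. The 10-base element is its own reverse complement, so both strands were searched at once. It occurred in 2341 of 32851 mouse windows (7.13%), and the 20-base match in 25 (0.0761%). Among the set, Bax and Trp53 windows also held a 10-base element, and those of Bbc3, Eda2r and Phlda3 held none. The window at the other annotated Cdkn1a start (chr17:29093519-29093768) held none either. A match is a description of the letters and says nothing of binding in these hearts.

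In naive hearts, 6 of the 10 genes differed between S55L and WT by the edgeR quasi-likelihood test with Benjamini-Hochberg adjustment over all 11945 genes tested. Of these, 5 were higher (Cdkn1a, Mdm2, Eda2r, Zmat3, Bbc3), where 21.9% of all genes tested were higher, and 1 was lower (Ccng1), where 21.6% were lower. With so many genes called, 5 of 10 is more than the background share but is no test of the set. The 5 S55L libraries lay above all 5 WT libraries for 4 genes (Cdkn1a, Mdm2, Eda2r, Zmat3), and 16.8% of all genes did the same. Eda2r enters both counts. It held 4 reads over WT naive, 25 over WT PP, 115 over S55L naive and 58 over S55L PP libraries. No WT library reached the level that the filter on low counts asks for, so Eda2r passed it only through S55L libraries. Its place in both counts is thus no support of its own. The median log2 difference was 0.68 over the 10 genes and -0.004 over all genes tested.

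**Figure D1:**
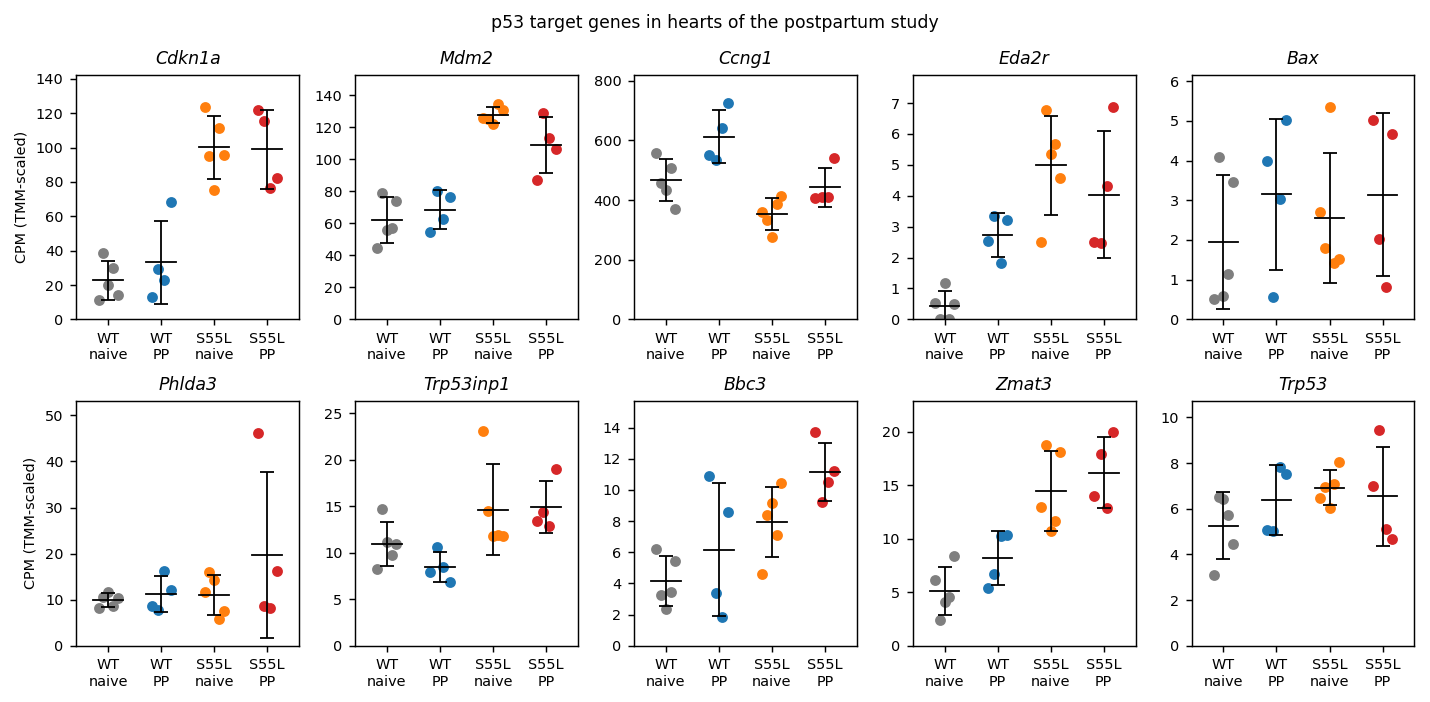
CPM of the 10 genes (vertical axis, linear from 0, TMM-scaled) in each library of the postpartum study, with points for libraries and black lines for the mean ± SD of each group. Cdkn1a, Mdm2, Zmat3 and Eda2r separate the naive genotypes, with Cdkn1a at 75.1 to 124 CPM in S55L naive and 11.3 to 38.4 CPM in WT naive hearts.

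Among the regulators, Trp53 (ENSMUSG00000059552) was counted at 6 to 11 reads per WT naive library and 25 to 39 reads per S55L naive library. Scaled for depth, that was 5.25 ± 1.47 CPM in WT (n = 5) and 6.93 ± 0.77 CPM in S55L (n = 5), the groups overlapped, and the log2 difference of 0.43 had an interval from -0.11 to 0.96 (adjusted p = 0.21). Under total-count scaling, which moved the median of all genes tested from -0.004 to 0.24, it was 0.68 (adjusted p = 0.039 by edgeR). Wrap53 lies antisense to Trp53 at its 5′ end, and since the strand setting of the counting is not given, reads where they overlap cannot be told apart. Mdm2 (ENSMUSG00000020184) was 44.3, 79.2, 55.6, 56.8 and 73.7 CPM in WT naive libraries 1 to 5. In S55L naive libraries 1 to 5 it was 125.9, 124.9, 122, 134.5 and 130.8 CPM. Every S55L library was above every WT library, and the S55L values lay within a narrow band. The group means were 61.9 ± 14.3 and 127.6 ± 4.99 CPM, a log2 difference of 1.05 (SE 0.15, 2.07-fold; adjusted p = 3.8e-06 by edgeR).

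Among the genes of cell-cycle arrest, Cdkn1a (ENSMUSG00000023067) encodes p21, which binds and inhibits cyclin-dependent kinases. Its levels in WT naive libraries 1 to 5 were 11.3, 38.4, 19.9, 29.8 and 14.4 CPM. The S55L naive libraries 1 to 5 had 123.8, 95.1, 75.1, 111.4 and 95.7 CPM. The lowest S55L library was thus above the highest WT library. The means were 22.8 ± 11.2 and 100.2 ± 18.4 CPM, a log2 difference of 2.18 (SE 0.38, 4.54-fold; adjusted p = 0.00019 by edgeR). Ccng1 (ENSMUSG00000020326) encodes cyclin G1, which lacks a cell-cycle kinase of its own and brings a phosphatase to Mdm2. It was 556.8, 458.9, 434.6, 508.2 and 371.6 CPM in WT naive libraries 1 to 5, and 359.8, 334.5, 275.6, 386.6 and 413.4 CPM in S55L naive libraries 1 to 5. The groups overlapped, since WT naive 5 lay below 2 of the S55L libraries. The mean was 466 ± 70.7 CPM in WT and 354 ± 52.8 CPM in S55L hearts, a log2 difference of -0.40 (SE 0.14, adjusted p = 0.027 by edgeR). The call was lost without any 1 of WT naive 1 or 4 or S55L naive 2 or 3 (log2 -0.38 to -0.32). With total counts as the scaling Ccng1 was at -0.15 (adjusted p = 0.45), with the plate column as a term at -0.19 (adjusted p = 0.65) and with no filter on low counts at -0.27 (adjusted p = 0.24 by edgeR).

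Among the genes of cell death, Eda2r (ENSMUSG00000034457), a death-receptor family member that binds ectodysplasin A2, had the largest fitted difference of the 10 but the fewest reads in WT naive hearts. Its counts in WT naive libraries 1 to 5 were 1, 0, 2, 0 and 1 reads. In S55L naive libraries 1 to 5 they were 12, 38, 24, 20 and 21 reads. No WT library reached the lowest S55L library. As CPM, the means were 0.44 ± 0.48 CPM and 4.98 ± 1.60 CPM, and the log2 difference was 3.32 (SE 0.57, interval 2.20 to 4.45; adjusted p = 3.8e-05 by edgeR). Because the WT group held 4 reads in all, the size of that difference is loosely set. When only these 2 groups were fitted, or all libraries were thinned to the smallest one, Eda2r fell below the filter on low counts and had no test.

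Bbc3 (ENSMUSG00000002083), which encodes the BH3-only protein PUMA that frees the apoptosis effectors, was 4.13 ± 1.61 CPM in WT naive hearts and 7.94 ± 2.24 CPM in S55L naive hearts. The groups overlapped, from 2.34 to 6.18 CPM in WT and from 4.59 to 10.5 CPM in S55L, with a log2 difference of 0.90 (SE 0.35, adjusted p = 0.041 by edgeR). That call was lost when any 1 of WT naive 2, 3 or 4 or S55L naive 2, 3 or 5 was left out (log2 0.75 to 0.88) and with counts thinned to the smallest library (0.98, adjusted p = 0.11), and the sign turned with the plate column as a term (-0.20, adjusted p = 0.86). Bax (ENSMUSG00000003873), one of those effectors, rested on 1 to 24 reads per library. It was 1.96 ± 1.69 CPM in WT and 2.56 ± 1.64 CPM in S55L naive hearts, with an interval of the log2 difference from -0.74 to 1.65 (adjusted p = 0.57).

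Phlda3 (ENSMUSG00000041801) encodes a small protein that competes with Akt for membrane lipids, and it was 9.91 ± 1.45 CPM in WT and 11.03 ± 4.32 CPM in S55L naive hearts (log2 0.18, interval -0.72 to 1.08, adjusted p = 0.77). Trp53inp1 (ENSMUSG00000028211), whose product works in p53 phosphorylation and autophagy, was 10.9 ± 2.39 CPM in WT and 14.6 ± 4.89 CPM in S55L hearts. In S55L naive 1 it stood at 23.1 CPM, and in the other S55L naive libraries it was 11.8 to 14.5 CPM, inside the WT range of 8.24 to 14.7 CPM. Its log2 difference of 0.45 had an adjusted p of 0.11 by edgeR, and the call was gained under total-count scaling (0.70, adjusted p = 0.014). Zmat3 (ENSMUSG00000027663), a zinc-finger protein that binds RNA and regulates splicing and mRNA stability, was 6.18, 2.45, 4.10, 4.59 and 8.41 CPM in WT naive libraries 1 to 5. It was 12.9, 18.8, 10.7, 11.7 and 18.1 CPM in S55L naive libraries 1 to 5. These rest on 3 to 17 reads per WT naive library and 41 to 105 reads per S55L naive library. Every S55L library exceeded every WT library, and the log2 difference was 1.43 (SE 0.28, 2.69-fold; adjusted p = 0.00015 by edgeR).

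At postpartum day 0, 5 of the 10 genes differed between S55L and WT hearts. Of these, 4 were higher (Cdkn1a, Mdm2, Zmat3, Trp53inp1), where 16.3% of all genes tested were higher, and 1 was lower (Ccng1), where 15.2% were lower. For 4 genes the lowest S55L library was above the highest WT library (Cdkn1a, Mdm2, Zmat3 and Trp53inp1), and 13.7% of all genes did the same. The median log2 difference over the 10 genes was 0.71, and that over all genes tested was -0.001.

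**Figure D2:**
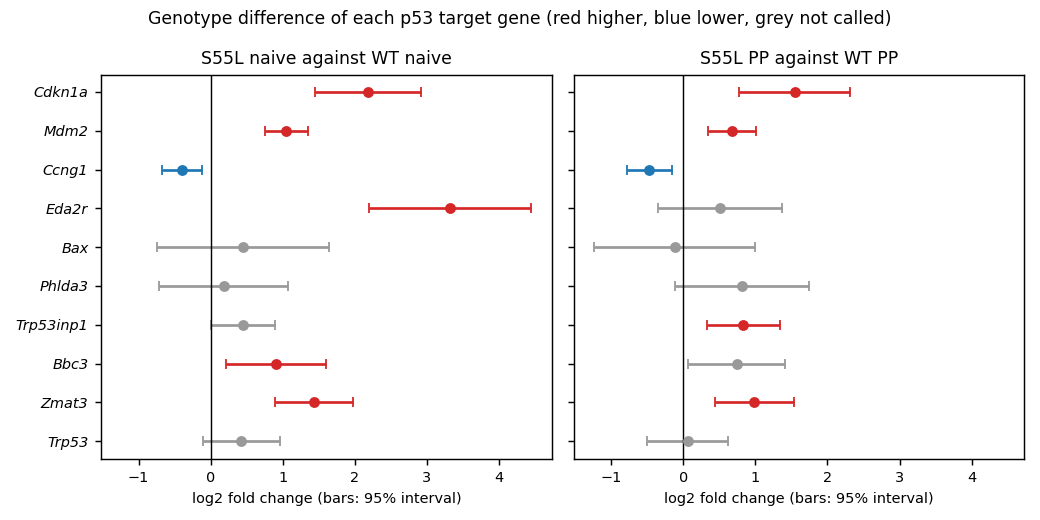
Log2 fold change of S55L against WT hearts (horizontal axis) for each of the 10 genes, naive on the left and PP on the right, with bars for the 95% interval. Red marks genes called higher, blue lower and grey neither, and Cdkn1a, Mdm2 and Zmat3 are red in both panels while Eda2r is at 3.32 on the left and 0.51 on the right.

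Mdm2 was 54.4, 80.4, 62.8 and 76.4 CPM in WT PP libraries 1, 3, 4 and 5, and 86.9, 129, 113.4 and 106.6 CPM in S55L PP libraries 1, 3, 4 and 5. The closest pair, WT PP 3 and S55L PP 1, lay near each other, and the groups did not overlap. The log2 difference was 0.67 (SE 0.17, 1.59-fold; adjusted p = 0.003 by edgeR). Cdkn1a was 13.1, 29.03, 22.95 and 68.1 CPM in the WT PP libraries and 121.9, 115.7, 76.2 and 82.0 CPM in the S55L PP libraries. WT PP 5 stood above the other 3 WT PP libraries and just below the lowest S55L library. The log2 difference was 1.55 (SE 0.39, 2.92-fold; adjusted p = 0.006 by edgeR), and without WT PP 5 it was 2.23. Trp53 was 6.37 ± 1.53 CPM in WT PP and 6.55 ± 2.17 CPM in S55L PP hearts (log2 0.06, interval -0.50 to 0.62, adjusted p = 0.89).

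Zmat3 was 5.44, 6.70, 10.3 and 10.4 CPM in the WT PP libraries and 13.97, 17.97, 12.9 and 19.95 CPM in the S55L PP libraries. The groups did not overlap, and the log2 difference was 0.99 (SE 0.28, adjusted p = 0.0072 by edgeR). Trp53inp1 was 7.98, 10.6, 8.46 and 6.81 CPM in the WT PP libraries and 13.4, 14.4, 12.9 and 19.0 CPM in the S55L PP libraries. These groups too stood apart, by a log2 difference of 0.83 (SE 0.26, adjusted p = 0.014 by edgeR). The call was lost without S55L PP 5, the highest library (log2 0.71, adjusted p = 0.051), with thinned counts (adjusted p = 0.094) and with the plate column as a term (adjusted p = 0.076). Ccng1 was 550.2, 534.8, 642.6 and 724 CPM in the WT PP libraries and 408.1, 411.8, 411.2 and 539.7 CPM in the S55L PP libraries. S55L PP 5 stood well above the other 3 and overlapped with WT PP. The log2 difference was -0.47 (SE 0.16, adjusted p = 0.026 by edgeR), and this call was lost without any 1 of WT PP 4 or 5 or S55L PP 1, 3 or 4 (log2 -0.45 to -0.38), under total-count scaling (-0.19, adjusted p = 0.43, against a median of 0.27 over all genes) and with the plate column as a term (-0.03). It was also lost with no filter on low counts (-0.39, adjusted p = 0.11) and when only these 2 groups were fitted (-0.48, adjusted p = 0.067 by edgeR).

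Eda2r did not pass the test at PP. Its counts were 7, 6, 3 and 9 reads in the WT PP libraries and 9, 11, 16 and 22 reads in the S55L PP libraries. As CPM these were 2.73 ± 0.71 CPM and 4.04 ± 2.07 CPM, and the groups overlapped (log2 0.51, interval -0.34 to 1.37, adjusted p = 0.4). Bbc3 ranged from 1.81 to 10.9 CPM in WT PP and from 9.21 to 13.7 CPM in S55L PP hearts, with an adjusted p of 0.1 by edgeR. A call was gained without WT PP 1 (log2 1.14, adjusted p = 0.024) and under total-count scaling (0.99, adjusted p = 0.034 by edgeR). In 15 of 17 alternatives Bbc3 stayed without a call, and its lowest log2 difference was 0.04. Phlda3 was 46.1 CPM in S55L PP 1 and 8.08 to 16.2 CPM in the other S55L PP libraries, against 7.82 to 16.3 CPM in WT PP, with an adjusted p of 0.21. The Phlda3 difference of 0.81 was -0.04 without S55L PP 1, so it rested on that library. The same column was deposited in duplicate, and counting every deposited column gave a call (log2 1.23, adjusted p = 0.035 by edgeR). Bax was 3.15 ± 1.91 CPM in WT PP and 3.13 ± 2.05 CPM in S55L PP hearts.

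**Figure D3:**
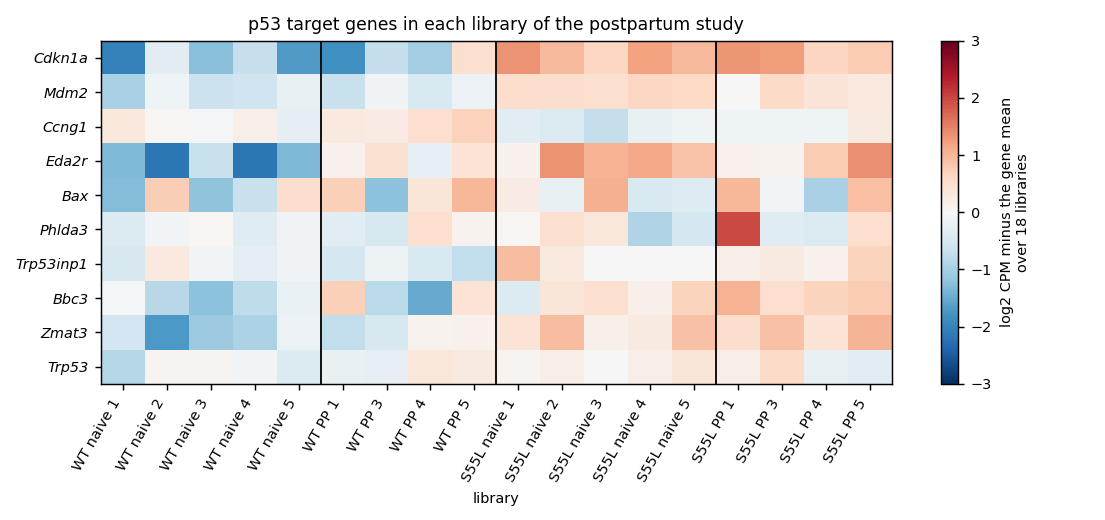
Log2 CPM of each gene (rows) in each of the 18 libraries of the postpartum study (columns), minus the mean of that gene over the libraries, in red where higher and blue where lower. Vertical lines part the 4 groups, and the rows of Cdkn1a, Mdm2 and Zmat3 are mostly blue in WT and mostly red in S55L libraries, with WT PP 5 red for Cdkn1a, while the Eda2r row is blue in WT naive libraries.

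PP and naive hearts were compared within each genotype. The age of PP mice at day 0 is not given and may differ from the 100 days of naive mice. Age and the postpartum state thus cannot be told apart, here or in the interaction below. Between WT PP and WT naive hearts none of the 10 genes was called by the edgeR quasi-likelihood test, and 2 genes in all (0.0167%) were. Eda2r came closest. Its 3 to 9 reads per WT PP library (1.81 to 3.35 CPM) were above the 0 to 2 reads per WT naive library (0 to 1.17 CPM), and the groups did not overlap, as for 0.896% of all genes. The log2 difference of 2.48 (SE 0.69) ranked 38 of 11945 genes by p (unadjusted p = 0.0012), and failed the adjustment (adjusted p = 0.38). It rests on 4 reads over WT naive libraries, and Eda2r was in this test only because S55L libraries passed the filter on low counts. Ccng1 was 0.40 higher on the log2 scale (SE 0.15, unadjusted p = 0.015, adjusted p = 0.67). The other members had adjusted p-values from 0.78 to 0.98. Among all genes, 756 had an unadjusted p below 0.05, and the DESeq2 Wald test called 10, none of them a member.

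Between S55L PP and S55L naive hearts no gene was called (0%), with 747 at an unadjusted p below 0.05 and 14 called by DESeq2, again with no member. All S55L naive libraries and S55L PP 5 came from plate column 2, and S55L PP 1, 3 and 4 from plate column 3. Plate column is thus partly tied to this comparison and to the interaction below. Cdkn1a was 98.9 ± 23.2 CPM at PP and 100.2 ± 18.4 CPM in naive hearts, with an interval of the log2 difference from -0.69 to 0.66. Mdm2 differed by -0.23 (interval -0.53 to 0.08), Zmat3 by 0.16 (-0.29 to 0.61) and Ccng1 by 0.32 (0.03 to 0.62, adjusted p = 0.78). The interaction asks whether the genotype difference itself differed between PP and naive hearts, and it called no gene (0%), with 444 at an unadjusted p below 0.05 and 1 called by DESeq2. Eda2r ranked 8 of 11945 genes by p, with a genotype difference that changed by -2.81 on the log2 scale from naive to PP (SE 0.78, unadjusted p = 0.0011, adjusted p = 1). That rank too rests on the 4 reads over WT naive libraries and on entry through S55L libraries. For the other members the interaction ranged from -0.63 for Cdkn1a to 0.63 for Phlda3, each with an adjusted p of 1.

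Ordered by mean level, Cdkn1a ran from WT naive (22.8 CPM) through WT PP (33.3) and S55L PP (98.9) to S55L naive (100.2), Mdm2 in the same order (61.9, 68.5, 109 and 127.6 CPM), and Eda2r likewise (0.44, 2.73, 4.04 and 4.98 CPM). For Cdkn1a and Mdm2 the 2 WT groups overlapped, the 2 S55L groups overlapped, and only the step between genotypes exceeded the spread. Zmat3 ran from 5.15 CPM in WT naive through 8.20 in WT PP and 14.4 in S55L naive to 16.2 in S55L PP, with the same neighbours overlapping. For Eda2r it was the step from WT naive to WT PP that did not overlap, and the steps above it did. Ccng1 ran the other way, from 354 CPM in S55L naive through 442.7 in S55L PP and 466 in WT naive to 612.9 in WT PP, and each group overlapped with the next.

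Genes whose pattern over the 18 libraries was most like that of 3 members were found by the root mean square difference of centred log2 CPM, among 9883 genes of at least 5 CPM. For Cdkn1a these were Tubb2a, which encodes a beta-tubulin (0.37), Mt2, which encodes a metallothionein (0.41), and Pfkp, the platelet form of phosphofructokinase (0.43), where the median gene was at 1.20. Mt2 shared the high WT PP spread, at 111.8 ± 103.2 CPM there against 63.0 ± 31.1 CPM in WT naive and 337.4 ± 86.5 CPM in S55L naive hearts. For Mdm2 they were Pigk, a subunit of the GPI transamidase (0.15), Nfu1, an iron-sulfur cluster scaffold of mitochondria (0.16), and Chmp4b, an ESCRT-III subunit (0.17), with the median gene at 0.61. For Eda2r they were Tmem106a (0.52), the pattern-recognition receptor gene Tlr2 (0.53) and Zfp991 (0.57), with the median gene at 1.13. The likeness is a description, over libraries that differ in depth and in plate column as given above.

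The lists of related genes are given by counts, to be read against the shares over all genes tested, 21.9% higher and 21.6% lower in naive hearts and 16.3% higher and 15.2% lower at PP. In every list, a gene low in WT can enter through S55L libraries alone. The balance of higher and lower genes is therefore limited by the filter on low counts. Other p53 targets of arrest and growth control had 8 of 14 genes measured, of which 4 were higher and 0 lower in S55L naive hearts (median log2 difference 0.75), and 4 higher and 1 lower at PP (0.58). Gadd45a, a stress sensor that binds PCNA and cyclin-dependent kinase 1, was 1.84 higher on the log2 scale in naive hearts (SE 0.23, adjusted p = 2.9e-07) and 1.30 higher at PP (SE 0.24, adjusted p = 0.00013 by edgeR). Gdf15, a stress cytokine that is a target of both p53 and ATF4, was 0.78 CPM in WT naive and 190.1 CPM in S55L naive hearts (log2 8.01, SE 0.57, adjusted p = 6.3e-09), on 0 to 3 reads per WT library. At PP it was 1.19 and 236.9 CPM (log2 7.44, SE 0.56, adjusted p = 1.9e-08 by edgeR). Sesn2, a target of both as well, was below the filter, with 3 reads over WT naive, 12 over WT PP, 46 over S55L naive and 44 over S55L PP. Ddit4, which restrains mTORC1, was 135.2 ± 97.4 CPM in WT naive and 97.96 ± 51.3 CPM in S55L naive hearts (adjusted p = 0.52), and 145 against 91.98 CPM at PP (adjusted p = 0.43).

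Other p53 targets of cell death had 9 of 11 genes measured, with 5 higher and 0 lower in naive hearts, where 21.9% of all genes were higher, and 2 higher and 1 lower at PP, near the shares of 16.3% and 15.2%. Their median log2 difference was 0.83 in naive hearts and 0.56 at PP. Perp, a desmosome-associated membrane protein, was 94.6 CPM in WT and 210.5 CPM in S55L naive hearts (log2 1.15, SE 0.12, adjusted p = 2e-08), and 0.996 higher on the log2 scale at PP (adjusted p = 2e-06 by edgeR). Bid, a BH3-only protein that links death receptors to mitochondria, was 0.55 CPM in WT and 9.38 CPM in S55L naive hearts (log2 3.93, SE 0.51, adjusted p = 6e-07), and 2.49 higher at PP (adjusted p = 0.00027 by edgeR). With 1 read worth 0.179 to 0.817 CPM, the WT naive level of Bid was near the floor, and its difference is loosely set. Pmaip1, which encodes NOXA, was below the filter at 0 to 5 reads per library. Over the BCL2 family as a whole, 3 were higher and 3 lower of 12 measured in naive hearts, and 3 higher and 2 lower at PP, near the shares over all genes. Bcl2l11, which encodes BIM, differed by -1.33 on the log2 scale in naive hearts (SE 0.18, adjusted p = 1.3e-06), while the survival gene Bcl2 was 1.56 higher at PP (SE 0.21, adjusted p = 1.3e-06 by edgeR).

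p53 targets of DNA repair and metabolism had 2 higher and 3 lower of 13 measured in naive hearts, and 3 and 3 at PP, near the shares over all genes in each direction (21.9% and 21.6%, then 16.3% and 15.2%). Tigar, which lowers fructose-2,6-bisphosphate, was 0.82 higher (adjusted p = 1.1e-05) and 0.76 higher at PP (adjusted p = 0.00014), and Ak1, the cytosolic adenylate kinase of muscle, differed by -1.30 (adjusted p = 1.5e-07) and -0.97 at PP (adjusted p = 7e-05 by edgeR). Among 16 measured p53 regulators and relatives, 1 was higher and 4 lower in naive hearts, and 0 higher and 1 lower at PP, near or below the shares of 21.6% and 15.2% lower over all genes. Wrap53 differed by -1.85 (adjusted p = 0.0034) and Ep300, a p53 acetyltransferase, by -0.64 (adjusted p = 0.0042) in naive hearts, and Kat5, another acetyltransferase, by -1.59 at PP (adjusted p = 0.027 by edgeR). Mdm4, the relative of Mdm2 that blocks p53 without degrading it, was 35.01 CPM in WT and 40.6 CPM in S55L naive hearts (adjusted p = 0.36) and 39.2 against 33.2 CPM at PP (adjusted p = 0.43).

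Of 16 genes known to be repressed through p21 and the DREAM complex, 8 were measured. In naive hearts 4 of the 8 were higher, where 21.9% of all genes were, and at PP 2 of the 8, near the 16.3% over all genes. None was lower in either state. A gene with few reads in WT can pass the filter on low counts through S55L libraries alone. The absence of lower genes is therefore limited by the filter. Cdk1, the kinase of mitosis, was 2.91 CPM in WT and 16.5 CPM in S55L naive hearts (log2 2.45, adjusted p = 0.00014), and 5.36 and 24.8 CPM at PP (log2 2.31, adjusted p = 0.00025 by edgeR). Birc5, which encodes survivin, was 2.81 higher on the log2 scale in naive hearts (adjusted p = 0.00069) and 2.42 higher at PP (adjusted p = 0.00083 by edgeR). Of 9 measured cyclins and kinases bound by p21, 5 were higher in naive hearts (21.9% over all genes) and 3 at PP (16.3%), with Ccnd1 (log2 0.94, adjusted p = 8.5e-06) and Ccnd2 (0.61, adjusted p = 0.0019) in naive hearts and Ccnd2 (0.78, adjusted p = 0.00072) and Cdk6 (0.75, adjusted p = 0.0027 by edgeR) at PP. With the plate column as a term, Ccnd2 at PP was at -0.02 (adjusted p = 0.97). Of the other CDK inhibitors, 3 of 7 were measured, and Cdkn1c, which encodes p57, differed by -1.06 in naive hearts (adjusted p = 0.00046) and by -1.27 at PP (adjusted p = 0.00068 by edgeR).

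In the ectodysplasin pathway around Eda2r, the ligand gene Eda and the genes Edar and Edaradd of the sister receptor and its adaptor were below the filter. Of 5 measured genes 1 was higher in each state, near the shares over all genes. It was Traf3, a signalling adaptor of the receptor family (log2 1.97, adjusted p = 5.8e-07, and 0.83 at PP, adjusted p = 0.014 by edgeR). The integrated stress response, which raises some of the same genes through ATF4, had 11 of 12 measured genes higher and 0 lower in both states, where 21.9% and 16.3% of all genes were higher. The filter on low counts limits this count as it does those of the other lists. Atf4 was 46.1 CPM in WT and 296.5 CPM in S55L naive hearts (log2 2.68, adjusted p = 1.6e-11). Chac1, a glutathione-degrading enzyme, was 3.80 higher (adjusted p = 3.9e-12) and 3.96 higher at PP (adjusted p = 4.9e-11), and Asns, asparagine synthetase, was 5.28 higher at PP (adjusted p = 7.1e-10 by edgeR). Lists share genes, among them Gdf15, Ddit4, Sesn2, Bid and Pmaip1. Between PP and naive hearts, in the interaction and between diets, 0 genes of any of these lists were called.

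**Figure D4:**
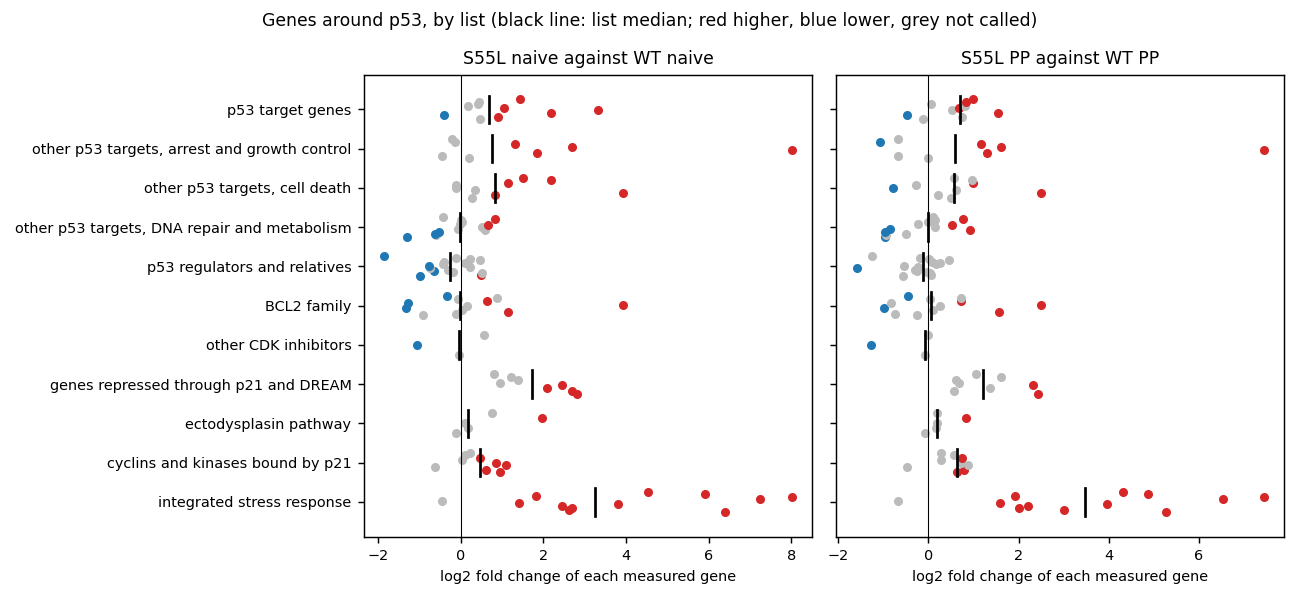
Log2 fold change (horizontal axis) of each measured gene of the 10 genes and of the lists around p53, naive on the left and PP on the right, with a black line at the median of each list. The median is 0.68 for the 10 genes in naive hearts and 3.24 for the integrated stress response, against -0.004 over all genes tested.

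Markers of some cell types moved with genotype beside these genes. Summed macrophage markers (7 of 7 called higher in both states) were 146.3 to 314.3 CPM in WT libraries and 632.8 to 927.2 CPM in S55L libraries. Summed cardiomyocyte markers (5 of 6 called lower in both states) were 50200 to 67740 CPM in WT libraries and 26920 to 47060 CPM in S55L libraries, so markers of the labelled tissue were abundant in every library. Fibroblast markers were higher for 3 of 6 in naive hearts and 4 of 6 at PP. Endothelial markers were lower for 2 of 6 and 1 of 6. Over all genes tested, 21.9% were higher and 21.6% lower in naive hearts, and 16.3% and 15.2% at PP. The endothelial count at PP was near that share. Of 5 smooth muscle and pericyte markers, 1 was higher and 3 lower in naive hearts, and 1 higher and 2 lower at PP, while their summed level was 442.2 to 814.4 CPM in WT and 1399 to 3524 CPM in S55L libraries. Summed lymphocyte markers were at most 1.55 CPM, with Cd79a at 0 in all 4 groups, and those of neutrophils, erythroid cells, adipocytes and skeletal muscle at most 4.27, 14.5, 2.79 and 1.68 CPM. Their part in the differences of Cdkn1a, Mdm2, Zmat3, Eda2r and Ccng1 was not tested, and in whole-heart RNA a change in the number of cells of a type and a change of RNA per cell cannot be told apart.

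In the diet study, all mice were S55L and PP, and 9 of the 10 genes passed the filter; Trp53, at 1 to 13 reads per library, did not. None of the 9 was called between the EH301 and the control diet, nor was any of the 10335 genes tested (0%) by the edgeR quasi-likelihood test or by DESeq2, with 137 at an unadjusted p below 0.05. Cdkn1a was 91.2, 137.4, 156.7 and 107.6 CPM in control diet libraries 1 to 4. In EH301 diet libraries 7 to 10 it was 156.4, 263.7, 158.9 and 125.1 CPM. The groups overlapped, and the log2 difference was 0.50 (SE 0.29, interval -0.07 to 1.07). Without the 2 libraries under 1200000 reads (control diet 1 and EH301 diet 8) it was 0.12. Per the well codes, the control diet libraries used came from plate columns 1 and 2 and the EH301 libraries used from plate column 3. A diet difference and a plate column difference therefore cannot be told apart.

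Mdm2 was 40.0, 121.6, 139.4 and 70.1 CPM under the control diet and 86.1, 63.2, 115.3 and 75.2 CPM under EH301 (log2 -0.16, interval -0.83 to 0.52). Eda2r was 3.47 ± 1.77 CPM under the control diet and 5.63 ± 1.47 CPM under EH301 (log2 0.49, interval -0.27 to 1.25). Ccng1 was 285.5 ± 24.3 and 269.3 ± 30.2 CPM (log2 -0.09, interval -0.55 to 0.37). Bax was 46.7 CPM in control diet 1 and 9.44 to 12.0 CPM in the other control libraries, and 24.3 CPM in EH301 diet 8 against 7.01 to 15.3 CPM in the others of its group. Zmat3 was 55.6 and 52.5 CPM in those same 2 libraries and 19.4 to 25.9 CPM in the rest, and Phlda3 was 60.05 and 48.65 CPM against 16.6 to 32.9 CPM. Those 2 libraries were the shallowest, at 466651 and 1141997 reads on genes. Their summed macrophage markers were 4146 and 4906 CPM, against 1246 to 2299 CPM in the rest, and their summed skeletal muscle markers were 484.9 and 115.8 CPM, against 7.65 to 26.6 CPM. The part of depth, cell types or tissue in these values was not tested. The counts of the 2 studies were made on different annotations, and their levels were not compared.

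**Figure D5:**
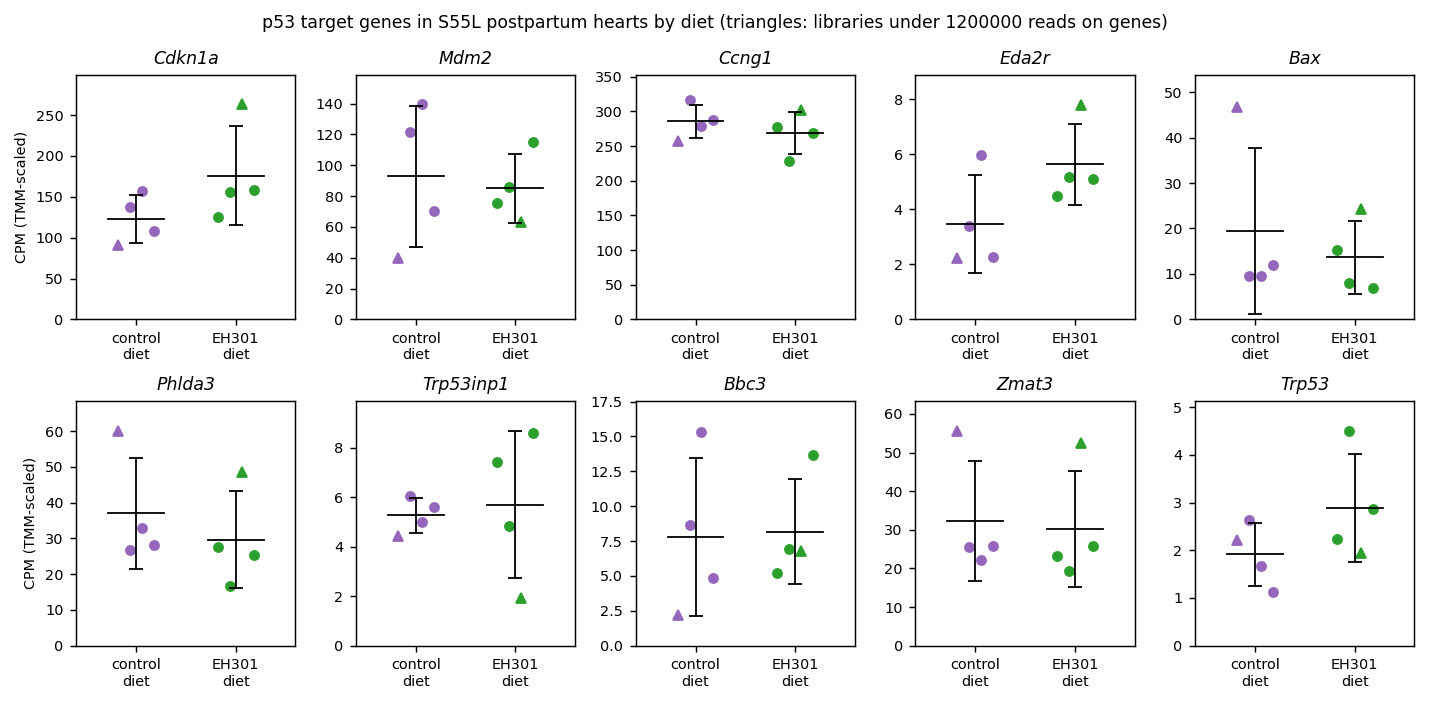
CPM of the 10 genes (vertical axis, linear from 0, TMM-scaled) in each diet library, with triangles for the 2 libraries under 1200000 reads on genes and black lines for the mean ± SD of each group. Bax, Zmat3 and Phlda3 are highest in the triangles, with Bax at 46.7 and 24.3 CPM, and the diets overlap in every panel.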

How the data were processed

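Gene counts of whole mouse hearts were deposited as 1 table per study. Per the submitters' processing notes, reads were trimmed with Trimmomatic 0.39, aligned by STAR 2.7.0f (genome build GRCm39.p6) and counted with HTSeq 0.6.1, and DESeq2 is named with version 3.21. The deposited values are whole-number raw counts per gene. The annotation release, strand setting and counting mode are not given in the sources used here, so genes that overlap, lie antisense or have near copies are uncertain. HTSeq's summary lines entered neither library sizes nor tests, and reads on genes were 57.54% to 69.21% of the counted lines. In the postpartum study this share was 58.33% to 61.57% in WT and 66.3% to 69.21% in S55L libraries, so it moved with genotype. Gene symbols came from a GENCODE M21 annotation by Ensembl identifier (51487 IDs with 99.44% of reads on genes in the postpartum study, 52073 IDs with 99.78% in the diet study). No coordinates were taken from the counts, and promoter windows are RefSeq's on GRCm38.p6.

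Every pair of columns was compared, identical columns within a group were used once, and the column that both diets share was not used. Genes passing filterByExpr by group (11945 and 10335) were scaled by trimmed means (TMM) and fitted with edgeR 4.0.16 (glmQLFit robust, glmQLFTest) in R 4.3.3, the 4 postpartum-study groups together and the diets apart, without a replicate block, with Benjamini-Hochberg adjustment over all genes tested and a threshold of 0.05. SE is the log2 fold change over the root of its F statistic, and intervals are the fold change ± 1.96 SE. The common biological coefficient of variation was 0.199 and 0.299. Log2 CPM used a prior count of 2. The procedure was tested on simulated data. The 10 genes, the lists and the tests were chosen with earlier results of these data known.

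The text names the 10 genes, Chchd10, Mdm4, Gdf15, Sesn2, Ddit4 and Pmaip1, up to 2 called genes of lowest adjusted p per list and comparison, and the 3 genes most like Cdkn1a, Mdm2 and Eda2r. Replicate numbers are in the titles, and what a number stands for is not given. Same-numbered libraries of WT PP and S55L PP deviated together (r 0.119 to 0.333 over 4 pairs, each above 0.1), and those of the other group pairs did not in every pair. Differently numbered libraries were not compared, so a link by number is not shown. Alternatives were other scalings, no filter, DESeq2 1.42.0, all deposited columns, a replicate block, the plate column, fits of only the groups compared and leaving out each library. Thinned counts and the diet fit without shallow libraries were chosen after seeing the data. A plate column term could not be estimated in the diet study.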

Additional observations from a re-analysis of the deposited data

Results flagged for a closer look

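Of 60 pairs of a gene and a group, 4 held a library far from the others of its group by Dixon's criterion, and chance alone marks about 1 in 20 such groups. In control diet 1, Bax was 46.71 CPM (9.44 to 12.0 CPM in the other control libraries) and Zmat3 was 55.6 CPM (22.3 to 25.9 CPM), in the library with the fewest reads on genes (466651). Ccng1 was 539.7 CPM in S55L PP 5 and 408.1 to 411.8 CPM in the other S55L PP libraries. Trp53inp1 was 23.14 CPM in S55L naive 1 and 11.8 to 14.5 CPM in the other S55L naive libraries.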

How the results depend on the processing

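Cdkn1a, Mdm2 and Zmat3 were called in both genotype comparisons under every alternative run, with log2 differences from 2.001 to 3.85 (naive) and 1.27 to 2.65 (PP) for Cdkn1a, 0.945 to 1.48 and 0.58 to 0.97 for Mdm2, and 1.29 to 2.185 and 0.82 to 1.87 for Zmat3. Of the 10 genes, 6 were called in naive and 5 in PP hearts; leaving out 1 library gave 4 to 6 in both. With the plate column as a term 3 were called at PP (Cdkn1a, Mdm2, Zmat3), and Bbc3 in naive hearts (-0.20) and Ccnd2 at PP (-0.019) changed sign; that fit rests on 1 WT library, and all genes called fell from 5192 to 2873 and from 3767 to 2108. With the replicate block the same numbers of members, 6 and 5, were called, and 5475 and 4122 genes in all. Total counts as the scaling moved the median of all genes tested to 0.24 (naive) and 0.27 (PP), and the higher share of calls to 73% and 78%, against 50.3% and 51.8% under trimmed means. No member was called in the other comparisons under any alternative; over all genes, WT PP against WT naive went from 2 to 21 (no filter, plate term) and 10 (DESeq2, without WT PP 1), S55L PP against S55L naive from 0 to at most 37, and the interaction from 0 to at most 5. Of 1102 member values under alternatives, 51 had the other sign and were called in neither fit. The cause of these changes was not tested. Bax, Eda2r, Bbc3 and Trp53 rest on few reads, as does Zmat3 in WT naive libraries (3 to 17 reads each), which limits their precision. Eda2r kept its naive call in every alternative in which it passed the filter.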

Other observations

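The column deposited under both diets has no single diet label, and its values enter no comparison. Per 1000000 reads on genes, without scaling, it held 175.6 for Cdkn1a, 81.98 for Mdm2, 280 for Ccng1, 43.9 for Phlda3, 21.95 for Zmat3, 8.06 for Bax, 5.38 for Bbc3, 4.48 for Trp53inp1, 3.14 for Trp53 and 2.24 for Eda2r.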
